A study of Mus musculus with 12 samples.

Results

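The 37 genes described here are 21 genes of glycolysis, 14 targets of the hypoxia-inducible factors (HIFs) that are not glycolytic enzymes or sugar transporters, and the 2 HIF alpha subunits Hif1a and Epas1. They were taken by gene symbol from the 52636 genes of the deposited tables, and all 37 have a row. Bulk RNA-seq covered 12 libraries of cultured mouse cells, 3 in each of 4 groups. Smooth muscle cells (SMCs) from a commercial supplier, called airway cells in the sample titles and tracheal cells in the source labels, were transfected with scrambled control RNA (Scr) or with a small interfering RNA against Klf4 (siKlf4). PDGFR-β+ lung cells also received Scr or siKlf4. The study's methods name alternative transfection reagents and siRNA suppliers, without saying which were used for which cell type. They give low glucose DMEM as the growth medium of PDGFR-β+ cells and SMC medium with EGF and FGF for SMCs. After transfection they name only supplemented SMC medium. The labels give wild-type C57BL/6 for both cell types, an age of 12 weeks for the PDGFR-β+ donors and no age for the SMCs. By the study's methods, the PDGFR-β+ cells carried the ROSA26R(Zs/+) reporter, which tamoxifen had switched on through Pdgfrb-CreERT2, and were sorted by its colour. The Pdgfrb promoter thus set which cells were marked. The labels name no untreated group and no group kept at low oxygen.

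Glycolysis splits glucose into pyruvate in the cytosol, and lactate dehydrogenase turns pyruvate into lactate, which monocarboxylate transporters carry out of the cell. HIF is a pair of an alpha subunit, HIF-1α or HIF-2α (the product of Epas1), and the constitutive subunit ARNT. In the presence of oxygen, prolyl hydroxylases encoded by the Egln genes mark the alpha subunits for degradation through the VHL ligase, so the protein is set largely after transcription and alpha subunit transcripts do not measure it. HIF binds DNA at the letters ACGTG or GCGTG and is known to raise most glycolytic genes together with genes of pH control, vessel growth, mitophagy and collagen hydroxylation.

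Levels are transcripts per 1000000 (TPM), which are scaled to gene length and to the same total in each library. They can be compared between genes, but they keep no sequencing depth, so the depth behind each value is unknown and no counting error can be given. The number of genes above 0 TPM ranged from 20590 to 21780. Fold changes are differences of log2(TPM + 1) fitted with limma, with their standard errors (SE), and understate the change of genes with low levels. Adjusted p-values are from limma over all genes tested with a mean of at least 1 TPM, with 0.05 as the threshold. Nothing in the labels says that the 3 libraries of a group came from separate cultures or animals, although the study describes independent experiments, so the p-values measure the spread between these libraries. With 3 libraries against 3 an exact permutation test cannot give a p under 0.1. A bulk level cannot tell fewer cells that make a transcript from less transcript per cell.

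Klf4 was left at 21.9% of its Scr mean in SMCs and at 9.16% in PDGFR-β+ cells. In SMCs, 1 Scr and 1 siKlf4 library carry no replicate number and stood apart from the 4 numbered ones on the second principal component (16.5% of the variance). In PDGFR-β+ cells, Scr replicate 2 stood apart from the other Scr libraries on the second component (9% of the variance). SMC values are given with the unnumbered library first, then replicates 2 and 3. Acta2, which encodes smooth muscle actin, was at 1373 ± 297 TPM (SD, n = 3) in Scr-treated SMCs and at 4369 ± 347 TPM (SD, n = 3) in Scr-treated PDGFR-β+ cells, while Myocd, the smooth muscle coactivator, was below 1 TPM in all 12 libraries. Pdgfrb was at 214 ± 1.52 TPM in the former and 447 ± 25.5 TPM in the latter, while the mesenchymal genes Pdgfra (417 ± 81.9 against 169 ± 15.7 TPM) and Dcn (409 ± 101 against 71.2 ± 18.7 TPM) were higher in SMCs (SD, n = 3 each). The mesenchymal genes Col1a1 (1108 ± 182 against 1937 ± 160.3 TPM), Cspg4 (5.29 ± 0.698 against 26.9 ± 7.46 TPM) and Rgs5 (1.23 ± 0.349 against 2.27 ± 0.552 TPM) were lower in SMCs (SD, n = 3 each). The leukocyte markers Ptprc and Adgre1 and the endothelial marker Pecam1 were below 1 TPM in all libraries, and Krt8 was listed at 0 in each. Other genes of these lists were detected. In Scr-treated PDGFR-β+ cells Lyz2 was at 19 TPM, Cd68 at 7.56 TPM, Csf1r at 2.28 TPM and Kdr at 15.3 TPM. With siKlf4, Lyz2 (-0.71, adjusted p = 0.00538, limma) and Csf1r (-0.87, adjusted p = 0.0138, limma) fell and Tek rose (0.60, adjusted p = 0.0212, limma) in PDGFR-β+ cells, and Kdr rose in SMCs (1.22, adjusted p = 0.00234, limma). The summed level of the 5 leukocyte genes was 28.6 to 29.9 TPM with Scr and 18.7 to 22.8 TPM with siKlf4 in PDGFR-β+ cells and at most 7.19 TPM in SMCs, that of the 4 endothelial genes at most 18.4 TPM, and that of the 5 epithelial genes at most 0.938 TPM. Several measures moved with siKlf4 and stand beside every result that follows. The summed level of the 3 proliferation genes Mki67, Top2a and Ccnb1 was 66.2 to 75 TPM in Scr and 107 to 118 TPM in siKlf4 libraries of SMCs, against 128 to 180.1 and 108 to 129 TPM in PDGFR-β+ cells. The summed level of 6 smooth muscle genes was 1385 to 2173 and 3239 to 3986 TPM in SMCs, and 5439.7 to 6279 and 4543 to 4843 TPM in PDGFR-β+ cells, in the same order. Acta2 and Tagln had the highest means of these 6 in every group, and not all 6 moved with the sum. Myh11 rose in SMCs (1.57, adjusted p = 0.00119, limma) and also in PDGFR-β+ cells (0.66, adjusted p = 0.00216, limma). Des was at -0.36 in SMCs (adjusted p = 0.0884, limma) and fell in PDGFR-β+ cells (-0.82, adjusted p = 0.0165, limma). The summed level of 6 mesenchymal genes was 2446 to 2862 and then 1628 to 2197 TPM in PDGFR-β+ cells, and 1923 to 2293 and then 1767 to 2043 TPM in SMCs. Gm42418, an abundant annotated model, took 1.8% to 3.23% and then 4.44% to 5.77% of all TPM in SMCs, whereas its ranges overlapped in PDGFR-β+ cells. The part of these measures in the results was not tested.

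The summed level of the glycolytic genes was higher with siKlf4 in SMCs, whereas it was lower in PDGFR-β+ cells. Summed over the 21 genes, they took 0.761%, 0.895% and 0.874% of all TPM in Scr-treated SMCs and 1.19%, 1.23% and 1.24% in siKlf4-treated SMCs. In PDGFR-β+ cells the sums were 1.06%, 1.02% and 0.947% with Scr and 0.832%, 0.85% and 0.882% with siKlf4. The groups did not overlap in either cell type, and the cell type with the lower sum under Scr had the higher sum under siKlf4. The 14 non-metabolic HIF targets took 0.204% ± 0.0074 and 0.252% ± 0.0085 in SMCs, and 0.149% ± 0.018 and 0.116% ± 0.0056 in PDGFR-β+ cells (SD, n = 3 each), with Scr and siKlf4 in turn. The plot of the summed levels shows the opposite shift of both sums. A sum is weighted to the most abundant genes and does not show that each gene moved with it. Of the 14 non-metabolic targets Bnip3 had the largest change in TPM, from a mean of 288 to 499 TPM in SMCs and from 215 to 65.3 TPM in PDGFR-β+ cells.

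**Figure D1:**
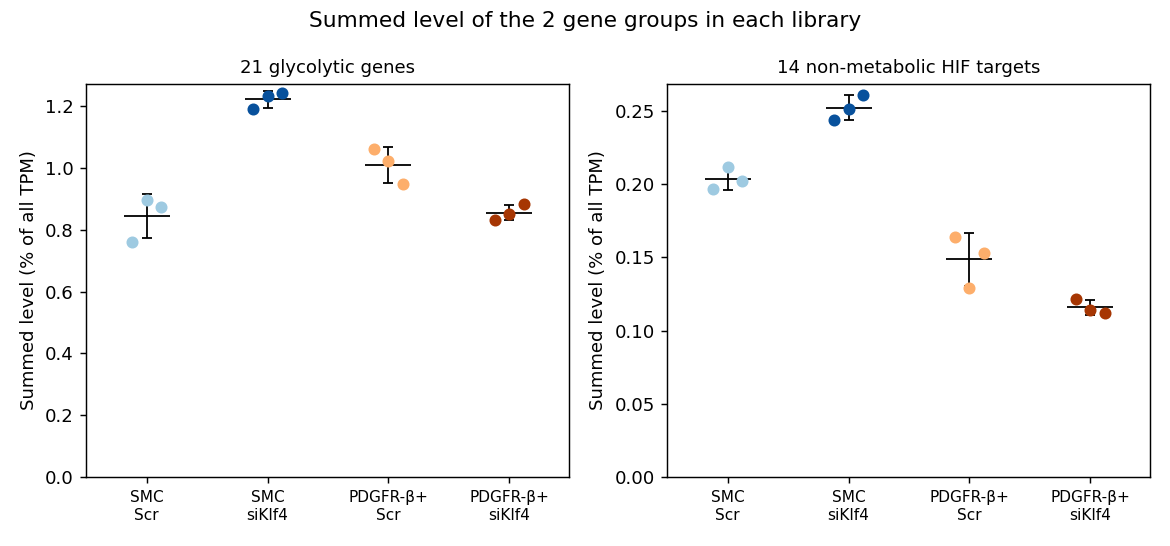
Summed level of the 21 glycolytic genes (left) and of the 14 non-metabolic HIF targets (right), as a percentage of all TPM, in each of the 12 libraries. Points are libraries, and bars are the mean and SD of 3. In both panels the siKlf4 libraries lie above the Scr libraries in SMCs and below them in PDGFR-β+ cells.

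In SMCs, 18 of the 37 genes rose with siKlf4 (48.6%, against 15.6% of the 13709 genes tested) and 4 fell (10.8%, against 12.9%). Of the 21 glycolytic genes, 12 rose and 2 fell, with a median log2 fold change of 0.43. Of the 14 non-metabolic HIF targets, 5 rose and 1 fell, with a median of 0.20. The median over all genes tested was 0.02. In the 4 numbered SMC libraries alone, 12 glycolytic genes and 5 non-metabolic HIF targets were called higher, the latter with Adm and without Ankrd37.

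In PDGFR-β+ cells, 14 of the 36 genes tested fell (38.9%, against 15.3% of 13694 genes) and 4 rose (11.1%, against 25.3%). Of the 21 glycolytic genes 8 fell and 2 rose, with a median log2 fold change of -0.24, and of the 13 non-metabolic HIF targets tested 5 fell and 2 rose, with a median of -0.26. The median over all genes was 0.10, so the members' changes are larger relative to it. Scaling libraries by median ratios moved that median to -0.003 and the share of rises among called genes from 62.3% to 47%. With this scaling 13 glycolytic genes were lower and 2 higher, and 7 non-metabolic HIF targets were lower and 1 higher. With quantile normalization the latter were 6 and 1. Without Scr replicate 2, which stood apart, 7 glycolytic genes and 7 non-metabolic targets were lower, and the medians were -0.269 and -0.414. The falls of P4ha2 (adjusted p = 0.013), Ndrg1 (0.0039) and Hif1a (0.00373) and the interactions of Gapdh (0.00246), Adm (0.025) and Ndrg1 (0.0331) then passed the threshold, and the fall of Pkm (0.0717) and the interaction of Epas1 (0.0574) did not. The count of lower glycolytic genes was 5 without Scr replicate 1 or without siKlf4 replicate 2, and that of lower non-metabolic targets was 3 without Scr replicate 1, siKlf4 replicate 2 or siKlf4 replicate 3.

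The difference of the siKlf4 effect between the cell types, tested as the interaction over the 12 libraries, was called positive (SMC effect above PDGFR-β+ effect) for 20 of 36 genes (55.6%, against 14.5% of 13032 genes) and called negative for 3 (8.33%, against 18.5%). It was called positive for 11 of 21 glycolytic genes and for 8 of 13 non-metabolic HIF targets. By sign alone, 20 of the 21 and 11 of the 13 values were positive, against 44% of all genes. Called in both cell types and in opposite directions were 7 of 36 genes, Hk2, Pfkp, Tpi1, Eno1, Pkm, Egln1 and Bnip3, which rose in SMCs and fell in PDGFR-β+ cells (19.4%, against 2.35% of genes tested in both). Of these calls, the PDGFR-β+ falls of Pkm and Egln1 were each lost in 5 of 6 fits without a library, and the SMC rise of Hk2 in 2 of 6. No member showed the reverse pattern (1.9% of genes). Slc2a1 and Egln3 rose in both cell types (6% of genes), and Aldoc, Eno2, Ndufa4l2 and Epas1 fell in both (3.82% of genes). The glycolytic and non-metabolic groups thus had 5 of 21 and 2 of 13 genes with opposite calls. The difference between these 2 gene groups was not tested. Klf4 itself had an interaction of 1.19 (adjusted p = 0.00069, limma), its fall being deeper in PDGFR-β+ cells. Cell type, source of the cells, growth medium and depth of the knockdown cannot be told apart in this comparison. The same holds for transfection reagent and siRNA, if these differed between the cell types.

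**Figure D2:**
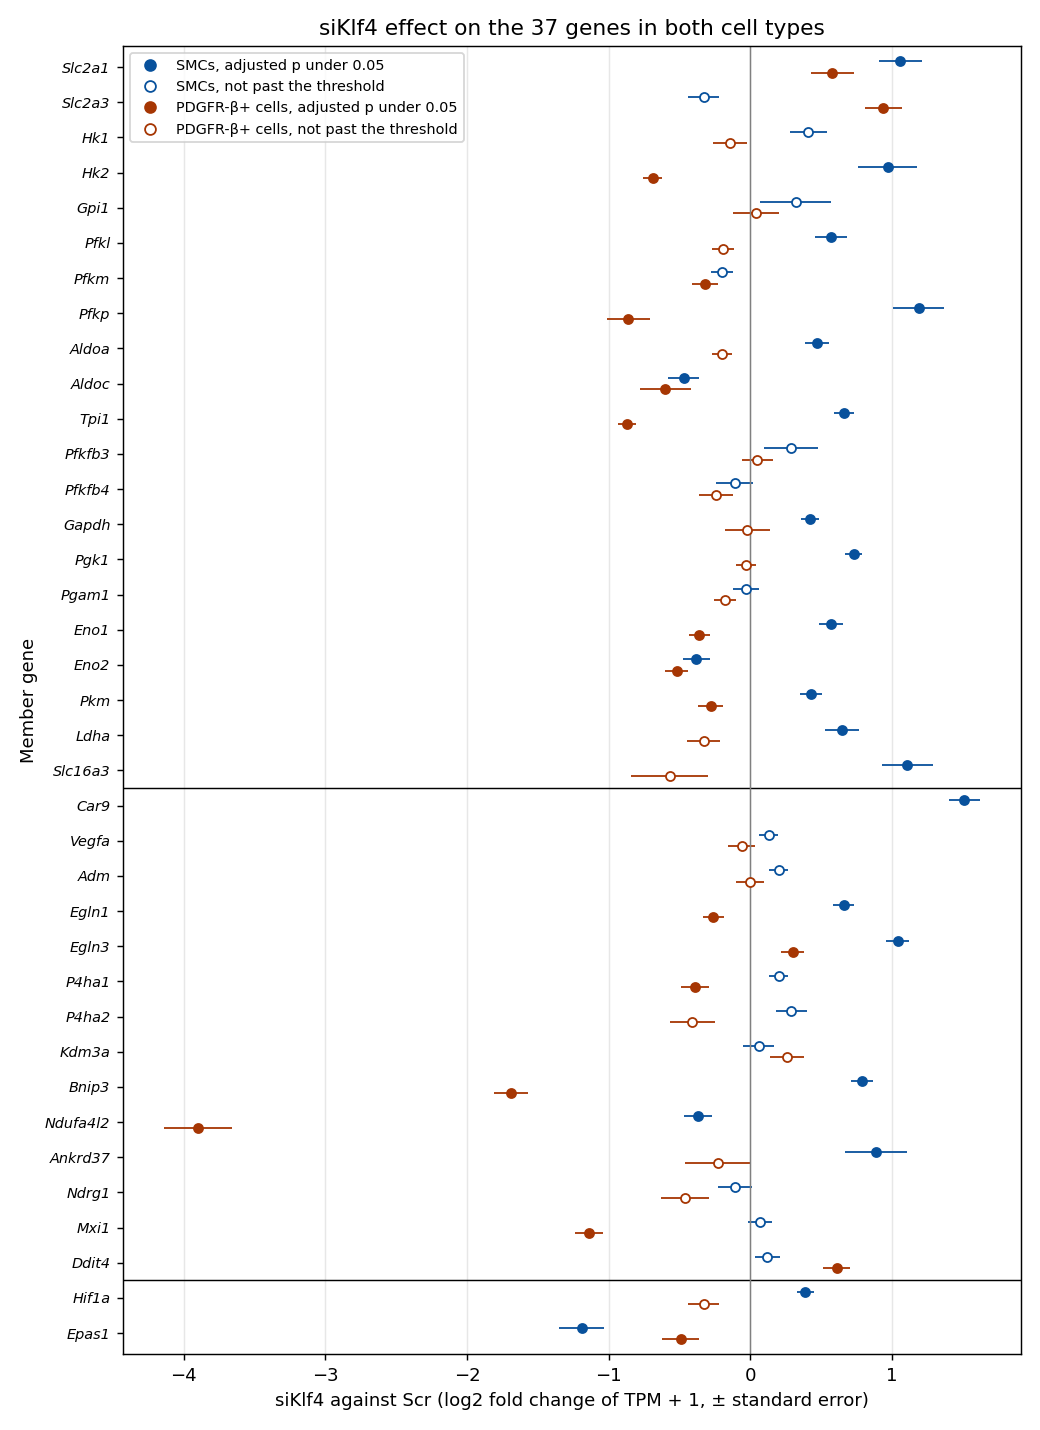
Log2 fold change of TPM + 1, siKlf4 against Scr, for each of the 37 genes in SMCs (blue) and PDGFR-β+ cells (brown), with bars of 1 SE and filled points for adjusted p under 0.05 (limma). Glycolytic genes stand above the first line, non-metabolic HIF targets between the lines and the HIF alpha subunits at the foot. Car9 was not tested in PDGFR-β+ cells, and Ndufa4l2 has the lowest value, -3.90 in PDGFR-β+ cells.

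Glucose enters through the transporters GLUT1 and GLUT3, encoded by Slc2a1 and Slc2a3. Slc2a1 (ENSMUSG00000028645.11; mm10 chromosome 4, 119108711 to 119137983, forward strand) was at 80.3, 111 and 106 TPM in Scr-treated SMCs and at 212, 178 and 232 TPM with siKlf4. In PDGFR-β+ cells its replicates 1 to 3 were at 123, 95 and 130.5 TPM in the Scr libraries, against 185, 194 and 144 TPM in the siKlf4 libraries. The groups did not overlap in either cell type, with log2 fold changes of 1.06 (SE 0.15, adjusted p = 0.00339, limma) and 0.58 (SE 0.15, adjusted p = 0.0191, limma). The difference between the cell types, 0.48, did not pass the threshold (adjusted p = 0.13, limma). The PDGFR-β+ call was lost without siKlf4 replicate 1 (0.0605) or 2 (0.0656), and with no filter on low values (adjusted p = 0.0525).

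Slc2a3 was low throughout. It was at 5.44, 6.15 and 5.27 TPM in the Scr libraries, against 4.2, 4.35 and 4.18 TPM in the siKlf4 libraries in SMCs, and at 0.947, 1.17 and 1.01 TPM and then 3.14, 2.79 and 2.82 TPM in PDGFR-β+ cells. It rose in PDGFR-β+ cells (log2 fold change 0.94, adjusted p = 0.00147, limma), and its -0.33 in SMCs missed the threshold (adjusted p = 0.0589, limma). The interaction was -1.27 (adjusted p = 9.43e-05, limma), the only negative value among the glycolytic genes. Slc2a1 made up 94.6% ± 0.82 of the summed TPM of the pair in Scr-treated SMCs and 99.1% ± 0.26 in Scr-treated PDGFR-β+ cells (SD, n = 3 each).

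Hexokinase, which traps glucose in the cell as its phosphate, is encoded by Hk1 and the inducible Hk2. Hk2 (ENSMUSG00000000628.10; mm10 chromosome 6, 82725025 to 82774454, reverse strand) was at 19.2, 31.3 and 33.3 TPM in Scr-treated SMCs and at 46.1, 59.9 and 57.3 TPM after siKlf4. In PDGFR-β+ cells it was at 58.6, 57.6 and 56.7 TPM in the Scr libraries, against 36.2, 34.5 and 35.5 TPM in the siKlf4 libraries. All libraries of a treatment lay on 1 side of the other treatment, and the sides were exchanged between the cell types. The log2 fold changes were 0.97 (SE 0.21, adjusted p = 0.015, limma) and -0.69 (SE 0.065, adjusted p = 2.35e-04, limma), and their difference was 1.66 (SE 0.24, adjusted p = 3.36e-04, limma). The SMC call of Hk2 was lost narrowly without siKlf4 replicate 2 (adjusted p = 0.0544) or 3 (0.0523). Hk1 was not called in either cell type (0.41 in SMCs and -0.14 in PDGFR-β+ cells), although its difference of 0.55 passed the threshold narrowly (adjusted p = 0.0461, limma). That difference missed it in 9 of 12 fits that left out a library, as well as with the replicate block (0.129). It also missed it with no filter on low values, without a mean-variance trend and in the numbered SMC libraries alone.

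Phosphofructokinase, the committing step of glycolysis, has liver (Pfkl), muscle (Pfkm) and platelet (Pfkp) subunits, which behaved differently. Pfkp (ENSMUSG00000021196.14; mm10 chromosome 13, 6579768 to 6648777, reverse strand) was at 33.4, 33.6 and 51.4 TPM in Scr-treated SMCs and at 77.6, 100.3 and 91.9 TPM with siKlf4. In PDGFR-β+ cells it was at 69.5, 84 and 63.6 TPM and then at 34.3, 47.4 and 36.7 TPM. It rose in SMCs (log2 fold change 1.19, SE 0.18, adjusted p = 0.0047, limma) and fell in PDGFR-β+ cells (-0.86, SE 0.15, adjusted p = 0.0031, limma), with an interaction of 2.05 (adjusted p = 1.28e-04, limma). Pfkl rose in SMCs (0.57, adjusted p = 0.00995, limma) and had a value of -0.19 in PDGFR-β+ cells (adjusted p = 0.0889, limma). Pfkm fell in PDGFR-β+ cells (-0.32, adjusted p = 0.0245, limma) and was at -0.20 in SMCs (adjusted p = 0.0941, limma). The Pfkm call was lost without Scr replicate 1 (0.0826), siKlf4 replicate 2 (0.0812) or siKlf4 replicate 3 (0.0842). Pfkfb3 and Pfkfb4, whose products make the activator fructose 2,6-bisphosphate, were called in neither cell type, with values between -0.24 and 0.29.

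As a share of the summed phosphofructokinase TPM, Pfkp went from 17.5% ± 3.4 to 26.8% ± 1.6 in SMCs and from 31.1% ± 3.4 to 22.3% ± 3.8 in PDGFR-β+ cells (SD, n = 3 each). Pfkm went from 21.7% ± 3.2 to 12.5% ± 0.48 in SMCs and was at 16.8% ± 0.98 and 17.6% ± 1.3 in PDGFR-β+ cells, where its groups overlapped. Hk2 took 32% ± 3.5 of the hexokinase TPM in Scr-treated and 24.1% ± 1.6 in siKlf4-treated PDGFR-β+ cells, without overlap, and 22.7% ± 6.1 and 30.1% ± 3.5 in SMCs, with overlap. The plot of these shares sets 6 genes side by side. Shares are a description and were not tested.

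**Figure D3:**
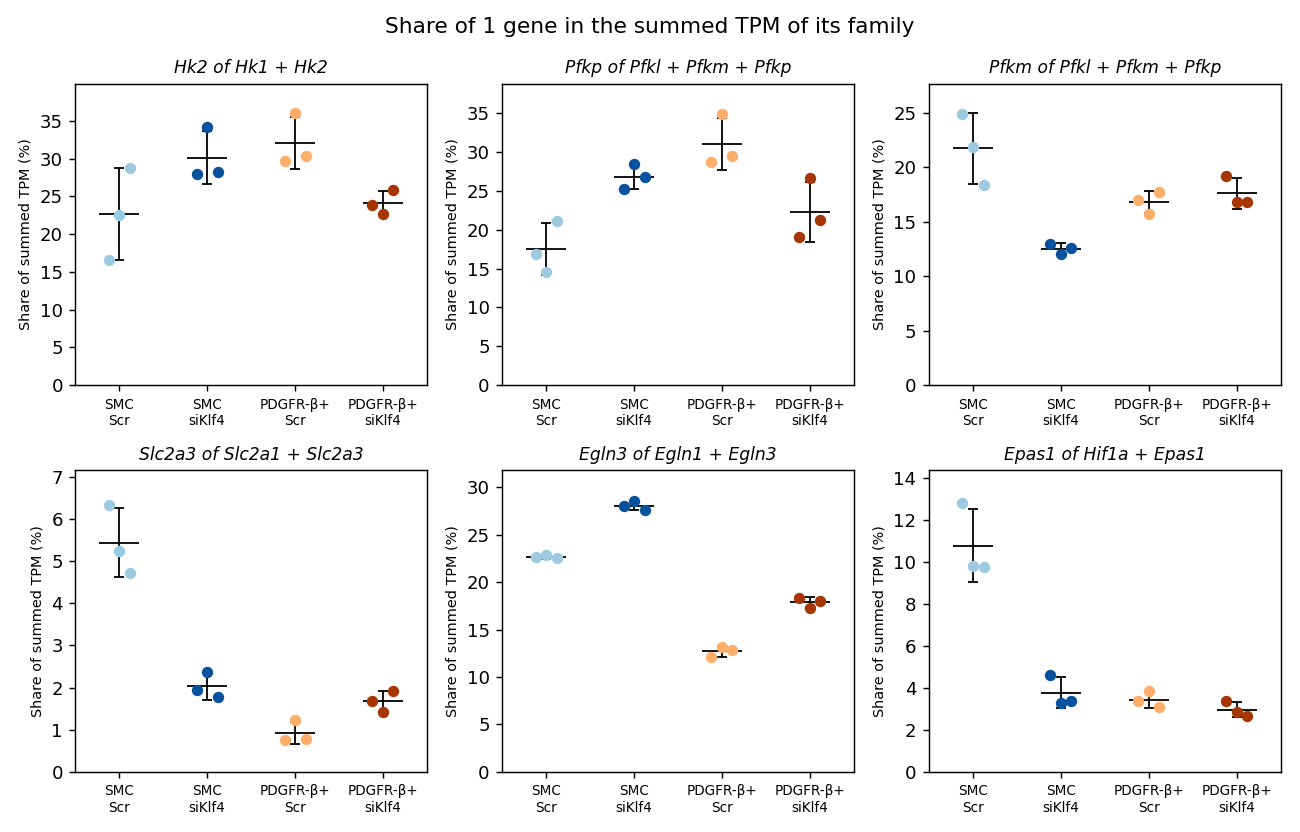
Share of 1 gene in the summed TPM of its family, in percent, for Hk2, Pfkp, Pfkm, Slc2a3, Egln3 and Epas1 in each library, with bars for the mean and SD of 3. Pfkp shifted in opposite directions in the 2 cell types, Egln3 upward in both and Epas1 downward without overlap in SMCs.

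Aldolase and triose phosphate isomerase follow. Tpi1 (ENSMUSG00000023456.14; mm10 chromosome 6, 124810586 to 124814296, reverse strand) was at 484, 550.1 and 543 TPM in the Scr libraries, against 796, 836 and 858 TPM in the siKlf4 libraries in SMCs, and at 619, 589.7 and 566 TPM and then 321, 319 and 329 TPM in PDGFR-β+ cells. These non-overlapping groups gave log2 fold changes of 0.66 (SE 0.072, adjusted p = 0.00177, limma) and -0.87 (SE 0.062, adjusted p = 6.6e-05, limma). The interaction of 1.53 had an adjusted p of 1.8e-06 (limma). Aldoa, the aldolase that made up 99.1% of aldolase TPM in Scr-treated SMCs and 99.8% in Scr-treated PDGFR-β+ cells, rose in SMCs (0.47, adjusted p = 0.00824, limma), with -0.20 in PDGFR-β+ cells (adjusted p = 0.0625, limma). Aldoc, the brain aldolase, was low and went the other way from Aldoa in SMCs. It was at 12.4, 10.4 and 11 TPM and then 8.03, 7.15 and 8.37 TPM there (-0.47, adjusted p = 0.019, limma) and fell in PDGFR-β+ cells as well (-0.60, adjusted p = 0.0328, limma). Its SMC call was lost without siKlf4 replicate 2 (adjusted p = 0.07), in the numbered libraries (0.0562) and with the replicate block on these (0.0769). Its PDGFR-β+ call was lost in 4 of 6 fits without a library, with an adjusted p of up to 0.1 without siKlf4 replicate 2, and with no filter on low values (0.0944). Gpi1, which encodes glucose phosphate isomerase, was called in neither cell type and ranged from 351 to 644 TPM over the SMC libraries.

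In lower glycolysis, Gapdh, Pgk1, Eno1 and Pkm rose in SMCs. Pgk1, whose product makes the first ATP of the pathway (ENSMUSG00000062070.12; mm10 chromosome X, 106187100 to 106203699, forward strand), was at 835, 893 and 871 TPM in the Scr libraries, against 1458, 1439 and 1429 TPM in the siKlf4 libraries, a log2 fold change of 0.73 (SE 0.058, adjusted p = 8.21e-04, limma). In PDGFR-β+ cells it was at 1319.9, 1293 and 1146 TPM and then at 1240.4, 1213 and 1231 TPM, which overlapped (-0.03, adjusted p = 0.805, limma). The interaction was 0.76 (adjusted p = 9.11e-05, limma).

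Eno1, the main enolase, was at 1011, 1178 and 1225 TPM and then 1653, 1675 and 1721 TPM in SMCs, and at 1522, 1554 and 1363 TPM and then 1116, 1143 and 1202 TPM in PDGFR-β+ cells. The values of 0.57 (adjusted p = 0.00433, limma) and -0.36 (adjusted p = 0.00795, limma) were both called, as was their difference of 0.93 (adjusted p = 1.23e-04, limma). Eno2, the neuronal enolase, fell in both cell types, by 0.38 on the log2 scale in SMCs (adjusted p = 0.0275, limma) and by 0.52 in PDGFR-β+ cells (adjusted p = 0.00214, limma). The SMC call of Eno2 was lost in 5 of 6 fits that left out a library, with an adjusted p of up to 0.0807 without Scr replicate 3, in the 4 numbered libraries (adjusted p = 0.0569) and with the replicate block on these (0.104). Pkm, which encodes pyruvate kinase and had the highest Scr level of the 37 genes in both cell types, was at 1458, 1702 and 1606 TPM and then 2011, 2178 and 2217 TPM in SMCs, and at 2046, 1874 and 1671 TPM and then 1482, 1601 and 1510.4 TPM in PDGFR-β+ cells. It rose in SMCs (0.43, adjusted p = 0.0093, limma) and fell in PDGFR-β+ cells (-0.28, adjusted p = 0.0384, limma). The fall of Pkm was lost in 5 of 6 fits without a library (up to 0.124 without Scr replicate 1), with quantile normalization (-0.17) and with no filter on low values (0.144).

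Gapdh, to which the study's qRT-PCR values are referred, was at 599, 639 and 599 TPM in the Scr libraries, against 783, 849.9 and 835 TPM in the siKlf4 libraries in SMCs. It rose there by a log2 fold change of 0.42 (SE 0.063, adjusted p = 0.0044, limma), a ratio of means of 1.34. In PDGFR-β+ cells it was at 589, 392 and 569 TPM and then 483, 461 and 565 TPM, with a log2 fold change of -0.02 (adjusted p = 0.928, limma), which turned to 0.06 with quantile normalization and was positive in 4 of 6 fits without a library. The interaction was 0.45 (adjusted p = 0.0912, limma). Pgam1, which encodes phosphoglycerate mutase, was called in neither cell type, nor in the interaction.

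At the end of the pathway, Ldha, the lactate dehydrogenase subunit that favours lactate, and Slc16a3, the lactate exporter MCT4, both rose in SMCs. Ldha was at 993, 1196 and 1386 TPM and then 1949.6, 1829 and 1793 TPM there (0.65, SE 0.12, adjusted p = 0.00881, limma). Slc16a3 (ENSMUSG00000025161.16) was at 35.4, 53.3 and 53.4 TPM and then 86.8, 106 and 114 TPM (1.11, SE 0.18, adjusted p = 0.0057, limma). In PDGFR-β+ cells both had overlapping groups and negative values that were not called, -0.33 for Ldha (adjusted p = 0.067, limma) and -0.57 for Slc16a3 (adjusted p = 0.126, limma). The interaction passed for Ldha (0.98, adjusted p = 0.00206, limma) and Slc16a3 (1.68, adjusted p = 0.00404, limma).

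**Figure D4:**
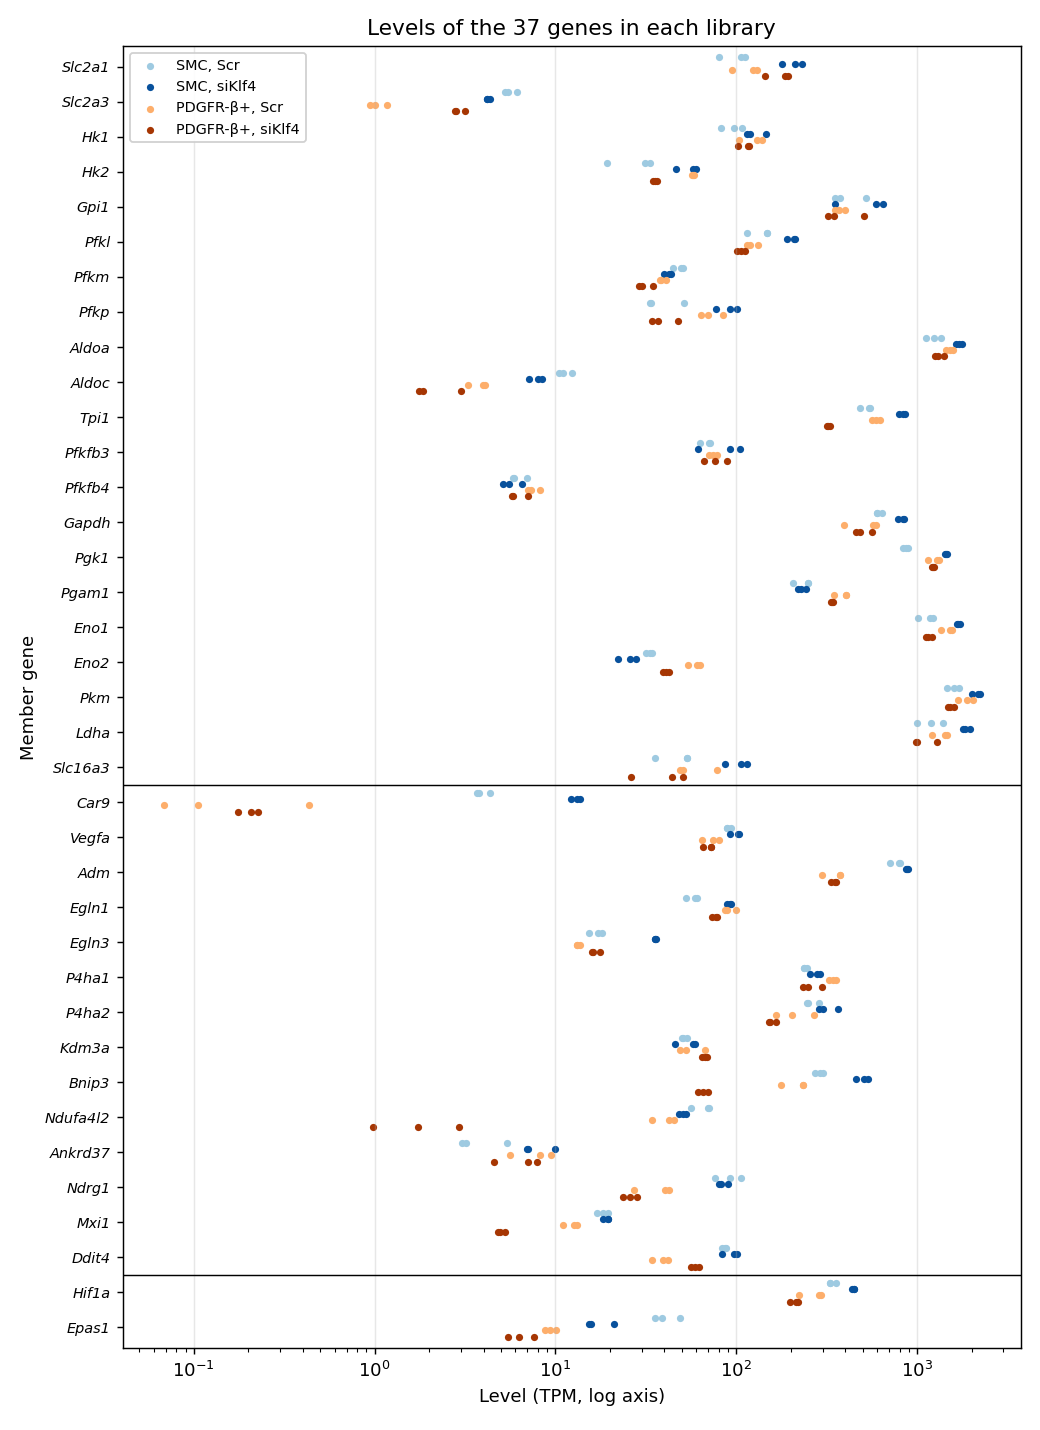
Level of each of the 37 genes in TPM on a log axis, with 1 point per library and 1 colour per group. Blue points are SMCs and orange or brown points PDGFR-β+ cells, with the darker tone for siKlf4. Pkm and Aldoa lie to the far right, and Car9 in PDGFR-β+ cells and Ndufa4l2 in siKlf4-treated PDGFR-β+ cells to the left.

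RefSeq promoter windows of GRCm38.p6, from 250 bases before to 50 bases after the start, were found for 33 of the 37 genes (50 windows). Slc2a3, Ndufa4l2, Ndrg1 and Epas1 had none. ACGTG on either strand (that is, ACGTG or CACGT) was held by 28 of 50 windows of the members (56%), by 19.6% of all 32851 windows, and by 25.5% of the 12202 windows of genes tested in both cell types. With GCGTG added, the shares were 78%, 43.8% and 62.2%. The mean GC content of the windows was 62.1%, 53.8% and 60.8%. Of the 18 genes that rose in SMCs, 14 held ACGTG in a window, and of the 15 other members with a window 10 did. Short stretches before the start, read in the direction of the gene, are shown for 8 genes that rose in SMCs, picked after their values were seen to cover the roles of transport, enzymes, lactate, pH, oxygen sensing and mitophagy. Capitals mark ACGTG or CACGT, and CACGTG where the pair overlaps.
Slc2a1: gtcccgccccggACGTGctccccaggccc
Hk2: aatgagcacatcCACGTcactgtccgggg
Pgk1: aaatggaagtagCACGTctcactagtctc
Ldha: cggcccagcctaCACGTGggttcccgcac
Slc16a3: caggcagcggtgACGTGcgcgggggacgt
Car9: ctatttccgatgCACGTacagcccgtcca
Egln3: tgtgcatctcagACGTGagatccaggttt
Bnip3: gcgcacgcgccgCACGTGccacacgctcc

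These stretches begin their capitals 36 (Slc2a1), 52 (Hk2), 131 (Pgk1), 48 (Ldha), 27 (Slc16a3), 18 (Car9), 229 (Egln3) and 108 (Bnip3) bases before the RefSeq start of the window. The GENCODE gene positions differ from these starts. The stretches of Ldha, Slc16a3 and Car9 lie downstream of the GENCODE gene starts at 46841475, 120948480 and 43506966. That of Slc2a1 spans its GENCODE start at 119108711. On the forward strand of GRCm38.p6, the stretch of Slc2a1 lies at chr4:119108697-119108725, that of Pgk1 at chrX:106186957-106186985, that of Ldha at chr7:46845744-46845772, that of Slc16a3 at chr11:120949028-120949056 and that of Car9 at chr4:43506996-43507024. On the reverse strand, that of Hk2 lies at chr6:82774490-82774518, that of Egln3 at chr12:54204087-54204115 and that of Bnip3 at chr7:138909598-138909626. Hk2 and Bnip3, which fell in PDGFR-β+ cells, held the letters just as Pgk1 and Ldha, which were not called there. Pfkp and Tpi1, called in opposite directions in the 2 cell types, held no ACGTG in their windows. A match of letters is not a measured site of binding.

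Among the HIF targets outside glycolysis, Car9, which encodes carbonic anhydrase 9 of pH control, had the largest rise of the 37 genes in SMCs. Car9 (ENSMUSG00000028463.14; mm10 chromosome 4, 43506966 to 43513729, forward strand) was at 4.34, 3.69 and 3.78 TPM in the Scr libraries, against 12.2, 13.2 and 13.7 TPM in the siKlf4 libraries, a log2 fold change of 1.51 (SE 0.11, adjusted p = 6.94e-04, limma). In PDGFR-β+ cells it was between 0.0683 and 0.431 TPM in the 6 libraries and below the filter. Vegfa, the vessel growth factor, and Adm, which encodes adrenomedullin, were called in neither cell type. Adm was at 706, 800.4 and 789.8 TPM and then 862, 875 and 892 TPM in SMCs (0.20, adjusted p = 0.0719, limma), and passed the threshold in the numbered libraries alone (adjusted p = 0.0468).

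Egln1 and Egln3 encode the HIF prolyl hydroxylases PHD2 and PHD3. Egln3 (ENSMUSG00000035105.5; mm10 chromosome 12, 54178981 to 54203860, reverse strand) was at 15.4, 18.1 and 17.2 TPM and then 35.8, 35.6 and 35.5 TPM in SMCs, and at 13.7, 13.2 and 13.1 TPM and then 17.6, 16.2 and 16 TPM in PDGFR-β+ cells. It rose in both, by 1.04 (adjusted p = 8.55e-04, limma) and 0.30 (adjusted p = 0.0237, limma), and the difference of 0.74 was called (adjusted p = 3.79e-04, limma). The PDGFR-β+ call was lost with median-ratio scaling (adjusted p = 0.0671), with quantile normalization and in 5 of 6 fits without a library (up to 0.0714 without siKlf4 replicate 1). Egln1 was at 52.7, 60.8 and 59.2 TPM and then 92.1, 89 and 92.9 TPM in SMCs (0.66, adjusted p = 0.00197, limma), and at 99.4, 86.4 and 89.2 TPM and then 78.3, 77.4 and 73.2 TPM in PDGFR-β+ cells (-0.26, adjusted p = 0.0312, limma). The fall of Egln1 was lost in 5 of 6 fits without a library, with an adjusted p of up to 0.103 without siKlf4 replicate 3, and without a mean-variance trend (0.0525). Egln3 accounted for 22.7% ± 0.22 of the summed TPM of the pair with Scr and 28.1% ± 0.46 with siKlf4 in SMCs, and for 12.7% ± 0.56 and 17.9% ± 0.51 in PDGFR-β+ cells (SD, n = 3 each), so its share was higher with siKlf4 in both, without overlap.

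P4ha1 and P4ha2 encode catalytic subunits of the collagen prolyl hydroxylase. P4ha1 fell in PDGFR-β+ cells, from 356, 324 and 342 TPM to 299, 234 and 249 TPM (-0.39, adjusted p = 0.0171, limma), and was at 0.20 in SMCs (adjusted p = 0.0685, limma). The fall was lost without Scr replicate 1 (0.0584) and without siKlf4 replicate 2 (0.0586) or 3 (0.0597). P4ha2 was called in neither cell type (0.29 and -0.41), while the interaction passed for both, at 0.59 (adjusted p = 0.00384, limma) and 0.70 (adjusted p = 0.0258, limma). That of P4ha2 was lost with the numbered SMC libraries alone (0.0665), with the replicate block (0.0628) and in 5 of 12 fits without a library. Kdm3a, a histone demethylase, was called nowhere.

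The 2 mitochondrial members had the largest falls in PDGFR-β+ cells. Bnip3, a mitophagy receptor (ENSMUSG00000078566.8; mm10 chromosome 7, 138890836 to 138909519, reverse strand), was at 301, 291 and 271 TPM in the Scr libraries, against 458, 533 and 507 TPM in the siKlf4 libraries in SMCs, and at 235, 177 and 233 TPM and then 65.2, 69.8 and 61.1 TPM in PDGFR-β+ cells. It rose in SMCs by 0.79 (SE 0.078, adjusted p = 0.0013, limma), and 30.4% of its Scr mean was left in PDGFR-β+ cells (log2 fold change -1.69, SE 0.12, adjusted p = 6.43e-05, limma). The interaction was 2.48 (adjusted p = 1.82e-06, limma).

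Ndufa4l2 encodes a protein related to a subunit of the respiratory chain and known as a HIF-1 target (ENSMUSG00000040280.10; mm10 chromosome 10, 127514967 to 127517154, forward strand). In PDGFR-β+ cells it was at 45.3, 34 and 42.5 TPM in the Scr libraries, against 2.94, 1.73 and 0.985 TPM in the siKlf4 libraries, so that 4.64% of the mean was left (log2 fold change -3.90, SE 0.24, adjusted p = 3.65e-05, limma). In SMCs it was at 56.5, 69.8 and 70.8 TPM and then 48, 50.5 and 52.7 TPM (-0.37, adjusted p = 0.0338, limma). The SMC call was lost in 5 of 6 fits without a library, with up to 0.105 without Scr replicate 2. It was also lost with both cell types in 1 fit (adjusted p = 0.184) and with no filter on low values. The fall was deeper in PDGFR-β+ cells by 3.53 (SE 0.29, adjusted p = 9.27e-06, limma), the largest interaction among the members. Shmt2, which overlaps Ndufa4l2 on the opposite strand, was at a log2 fold change of -0.02 in PDGFR-β+ cells (adjusted p = 0.903, limma).

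The other targets bear on growth and stress. Mxi1, which encodes an antagonist of MYC, fell in PDGFR-β+ cells from 13.1, 12.6 and 11 TPM to 4.91, 5.23 and 4.83 TPM (-1.14, SE 0.1, adjusted p = 1.99e-04, limma), with 0.07 in SMCs and an interaction of 1.21 (adjusted p = 4.53e-05, limma). Ddit4, whose product REDD1 restrains mTORC1, rose in PDGFR-β+ cells from 42, 34.1 and 39.2 TPM to 62, 56.4 and 59.1 TPM (0.61, adjusted p = 0.00197, limma), against 0.12 in SMCs (interaction -0.49, adjusted p = 0.0125, limma). It was the only non-metabolic target whose interaction was called negative. Ankrd37 rose in SMCs from 3.22, 5.4 and 3.06 TPM to 6.93, 9.93 and 7.09 TPM (0.89, adjusted p = 0.022, limma), and was at -0.23 in PDGFR-β+ cells (adjusted p = 0.459, limma). The SMC call was lost in 4 of 6 fits without a library, with up to 0.0721 without siKlf4 replicate 2. It was also lost in the numbered libraries alone (adjusted p = 0.0794) and with no filter on low values. The interaction of 1.12 (adjusted p = 0.0252, limma) missed the threshold in 6 of 12 such fits, with up to 0.0616 without SMC siKlf4 replicate 2. It also missed the threshold in the numbered SMC libraries alone and with the replicate block (0.0767). Ndrg1 was called in neither cell type.

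The transcripts of the alpha subunits diverged in SMCs. Hif1a (ENSMUSG00000021109.13; mm10 chromosome 12, 73901375 to 73947530, forward strand) was at 331, 357 and 328 TPM and then 437, 450.1 and 447 TPM in SMCs (0.39, SE 0.061, adjusted p = 0.00495, limma). Epas1 (ENSMUSG00000024140.9; mm10 chromosome 17, 86753700 to 86833410, forward strand) was at 48.6, 38.8 and 35.4 TPM and then 21.1, 15.3 and 15.7 TPM (-1.19, SE 0.16, adjusted p = 0.00315, limma). Epas1 made up 10.8% ± 1.8 of their summed TPM with Scr and 3.77% ± 0.73 with siKlf4 in SMCs (SD, n = 3 each). In PDGFR-β+ cells Hif1a was at 286, 221 and 294 TPM and then 218, 215 and 198 TPM (-0.33, adjusted p = 0.0521, limma), and Epas1 fell from 10.1, 8.79 and 9.36 TPM to 7.62, 6.3 and 5.43 TPM (-0.49, adjusted p = 0.0209, limma). The interaction was 0.73 for Hif1a (adjusted p = 0.0019, limma) and -0.70 for Epas1 (adjusted p = 0.0272, limma). For Epas1, the PDGFR-β+ call was lost in 4 of 6 fits without a library (up to 0.0701, without Scr replicate 1) and the interaction in 5 of 12 (up to 0.0658, without SMC siKlf4 replicate 2). Both were also lost with no filter on low values (0.0583 and 0.0502).

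Under Scr alone, the 2 gene groups leaned to different cell types. The tables of the cell types were made separately, and the cells differed in source and growth medium, so these levels are a description with no test. Of the 21 glycolytic genes, 9 were higher in every PDGFR-β+ library than in every SMC library and 4 the reverse, whereas of the 14 non-metabolic HIF targets 3 were higher in PDGFR-β+ cells and 9 in SMCs. Of all 37 genes, 15 were higher in SMCs (40.5%, against 30.7% of 14417 genes) and 12 in PDGFR-β+ cells (32.4%, against 28.2%), shares not far from those of all genes. The 9 glycolytic genes were Hk2, Pfkp, Aldoa, Tpi1, Pfkfb4, Pgk1, Pgam1, Eno1 and Eno2, with ratios of means from 1.13 for Tpi1 to 2.07 for Hk2. Slc2a3, Aldoc, Pfkm and Gapdh were higher in SMCs, by 5.39, 2.99, 1.24 and 1.19 times. Among the HIF targets, Car9 was 19.5 times as high in SMCs, Ndrg1 2.5 times, Ddit4 2.24 times and Adm 2.19 times, and Egln1, P4ha1 and Ankrd37 were higher in PDGFR-β+ cells. Both alpha subunits were higher in SMCs, Hif1a by 1.27 and Epas1 by 4.36 times. The order of the most abundant glycolytic transcripts in Scr-treated SMCs was Pkm (1589 ± 123 TPM), Aldoa (1239.9 ± 119.5 TPM), Ldha (1192 ± 196 TPM), Eno1 (1138 ± 113 TPM) and Pgk1 (866 ± 29.3 TPM; SD, n = 3 each), where the ranges of Aldoa, Ldha and Eno1 overlapped.

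Of 59 further genes of glucose metabolism, HIF response and HIF regulation listed for comparison, 49 were tested in SMCs, where 16 rose and 3 fell (median log2 fold change 0.20), and 50 in PDGFR-β+ cells, where 12 rose and 13 fell (median -0.04). In the interaction, 20 of 48 were called positive and 5 called negative. The shares over all genes are those given above for the members, and 12 rises of 50 in PDGFR-β+ cells are near that share. Among 25 further HIF targets tested in each cell type, 12 rose and 1 fell in SMCs, and 8 rose and 6 fell in PDGFR-β+ cells. Of 14 further genes of glucose handling in SMCs, 2 rose and 1 fell, and of 16 in PDGFR-β+ cells 2 rose and 6 fell. The 2 rises of 14 are near the 15.6% of all genes.

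Rises among these in SMCs included Ero1l, an oxidase of the endoplasmic reticulum (1.21, adjusted p = 4.37e-04, limma), and Gys1, glycogen synthase (1.00, adjusted p = 0.00153, limma). The falls were in Hif3a, a HIF family member (-0.52), the aldose mutarotase gene Galm (-0.46) and Stc2 (-0.42). In PDGFR-β+ cells the largest rises were in Wsb1 (1.12), Cited2, which competes with HIF for a coactivator (0.92), and Angptl4 (0.75), and falls included the repressor gene Bhlhe40 (-1.49) and the lysyl oxidase gene Loxl2 (-1.38). Bhlhe40, Gys1, Pgm2 and Plod1 were among those that rose in SMCs but fell in PDGFR-β+ cells. Pdk1, which encodes a pyruvate dehydrogenase kinase, rose in SMCs (0.69, adjusted p = 0.00158, limma) and was at -0.27 in PDGFR-β+ cells (adjusted p = 0.0904, limma), with an interaction of 0.96 (adjusted p = 3.22e-04, limma). The study's own DESeq2 test on counts also gave a rise in SMCs. It differed in PDGFR-β+ cells, where it gave Pdk1 a fall with an adjusted p under 0.05. The study also measured Pdk1 by qRT-PCR relative to Gapdh, and reports an increase for SMCs and none for PDGFR-β+ cells.

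Some members have near copies or neighbours that could share reads. The named copies of Gapdh, Ldha, Pgk1, Pgam1, Aldoa and Eno1 in the tables reached at most 4.67 TPM (Pgk1-rs7) in any library, and whether reads were split between them was not tested. On the opposite strand, Pfkp overlaps Pitrm1 (mean 79.1 TPM), Ankrd37 overlaps Ufsp2 (mean 50.9 TPM), Pfkm overlaps Senp1, Tpi1 overlaps Spsb2 and Gapdh overlaps Iffo1. On its own strand, Pkm overlaps Gm49759 (mean 33.9 TPM). Whether strand was used in the quantification is not given in the sources used here. Pitrm1 was not called in either cell type (log2 fold changes 0.03 and -0.16). Car9 overlaps the antisense model Gm12454, which at a mean of 3.56 TPM is near the level of Car9 itself in Scr-treated SMCs. Gm12454 was not called in either cell type (0.37 and 0.32). Ufsp2 was at -0.21 in SMCs, where Ankrd37 rose, and fell in PDGFR-β+ cells (-0.31, adjusted p = 0.00896, limma).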

How the data were processed

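Bulk RNA-seq of 12 libraries was analysed. The authors used HISAT2 for alignment of trimmed reads to mm10 and estimated abundance with StringTie and ballgown against a GENCODE annotation. The authors deposited the resulting TPM per library, with SMCs and PDGFR-β+ cells in separate tables and no pooled replicates. Counts, on which the study ran DESeq2, were not used here. All per-sample columns were used. The SMC columns without a replicate number were kept in their groups with no number assigned.

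Values were taken as log2(TPM + 1), keeping genes that averaged 1 TPM or more in a cell type's 6 libraries, and tested with limma 3.58.1 in R 4.3.3 (lmFit, eBayes with a mean-variance trend; two-sided, Benjamini-Hochberg over all genes tested, threshold 0.05). The interaction was fitted over 12 libraries for genes that passed in both cell types. The procedure was tested on simulated data. Summed levels, family shares and Scr levels are descriptions. For Aldoa, which has 2 identifiers, the more abundant was used, and the other reached 0.481 TPM.

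The members, gene lists and tests were chosen with earlier results of these data known. Every member was to be accounted for, with statistics for those past the threshold. Of the further genes of the pathway, up to 3 rises and 3 falls per cell type and Pdk1 were named, and Bhlhe40, Gys1, Pgm2 and Plod1 as opposite calls after their values were seen. A result that this rule would name is not reported here. Positions come from GENCODE M21 of GRCm38, matched by identifier without version, and promoters from RefSeq. Alternatives changed the pseudocount (0.1), the filter (none, or a mean of 5 TPM), the scaling (by median ratios or by quantiles), the trend (none) and the samples (both cell types together, the 4 numbered SMC libraries, each library left out), or added a replicate block (also, chosen after seeing the data, with the unnumbered SMC libraries as a pair) or a term that separates numbered from unnumbered SMC libraries.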

Additional observations from a re-analysis of the deposited data

Results flagged for a closer look

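For 23 of the 36 genes tested in both cell types, the interaction passed the threshold of 0.05 (adjusted p, limma over 12 libraries), so the siKlf4 effect differed between SMCs and PDGFR-β+ cells. Each value is the SMC effect minus the PDGFR-β+ effect on the log2 scale. Among the glycolytic genes it was 2.05 for Pfkp, 1.68 for Slc16a3, 1.66 for Hk2, 1.53 for Tpi1, 0.98 for Ldha, 0.93 for Eno1, 0.76 for Pfkl, 0.76 for Pgk1, 0.71 for Pkm, 0.66 for Aldoa, 0.55 for Hk1 and -1.27 for Slc2a3. Among the non-metabolic HIF targets it was 3.53 for Ndufa4l2, 2.48 for Bnip3, 1.21 for Mxi1, 1.12 for Ankrd37, 0.92 for Egln1, 0.74 for Egln3, 0.70 for P4ha2, 0.59 for P4ha1 and -0.49 for Ddit4. It was 0.73 for Hif1a and -0.70 for Epas1. In the main fit Ndufa4l2 and Epas1 fell in both cell types and Egln3 rose in both, so for these the difference lies in the size of the change. The SMC call of Ndufa4l2 and the PDGFR-β+ calls of Egln3 and Epas1 were lost in most fits without a library.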

How the results depend on the processing

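TPM hold no depth, so counting error could not be set beside any value, and 3 libraries per group limit the precision. In SMCs the lower glycolytic genes numbered 1 with no filter on low values, 0 with the replicate block and 0 in the numbered libraries only, and 1 in every fit that left out a library. The median log2 fold change of all glycolytic genes in SMCs was 0.544 with quantile normalization and 0.409 to 0.499 without a library. The lower non-metabolic HIF targets in SMCs numbered 0 with no filter and 0 with both cell types in 1 fit, and 0 to 1 without a library. In PDGFR-β+ cells the higher glycolytic genes numbered 1 with no filter and 1 with a minimum mean of 5 TPM (1 to 2 without a library). The lower ones numbered 13 with median-ratio scaling and 5 to 9 without a library, with 5 when Scr replicate 1 or siKlf4 replicate 2 was left out. The median of all glycolytic genes in PDGFR-β+ cells was -0.335 with median-ratio scaling and -0.279 to -0.192 without a library. The higher non-metabolic HIF targets numbered 1 with median-ratio scaling and 1 with quantile normalization (1 to 2 without a library), and the lower ones 3 to 7 without a library, with 3 when Scr replicate 1, siKlf4 replicate 2 or siKlf4 replicate 3 was left out. The median of all non-metabolic HIF targets tested there was -0.369 with median-ratio scaling, -0.357 with quantile normalization and -0.414 to -0.200 without a library. In the interaction, negative glycolytic genes numbered 0 with a minimum mean of 5 TPM, where Slc2a3 is not tested. The glycolytic median was 0.664 with that filter, 0.625 with median-ratio scaling and 0.458 to 0.637 without a library, and the non-metabolic median was 0.782 with median-ratio scaling and 0.558 to 0.773 without a library. The sign turned only for values that were not called. In SMCs these were Pgam1 (-0.125 to 0.012 without a library) and Kdm3a (-0.013 with quantile normalization and -0.007 to 0.179 without a library). In PDGFR-β+ cells they were Gpi1 (-0.067 with median-ratio scaling, -0.156 to 0.172 without a library), Pfkfb3 (-0.060 with median-ratio scaling, -0.009 with quantile normalization, -0.057 to 0.152), Gapdh (0.061 with quantile normalization, -0.208 to 0.084), Pgk1 (0.044 with quantile normalization, -0.089 to 0.013), Vegfa (-0.141 to 0.012) and Adm (-0.111 with median-ratio scaling, -0.113 to 0.057). The cause was not tested. Same-numbered Scr and siKlf4 libraries deviated together with r of 0.073, -0.016 and 0.004 in PDGFR-β+ cells and, over only 2 numbered pairs, 0.185 and 0.199 in SMCs. The 2 SMC libraries with no number gave 0.361, but no label ties them to each other, so the numbers were not taken to pair the samples. The replicate block, fitted on the 4 numbered SMC libraries, gave 1500 higher and 1353 lower genes in SMCs, against 2140 and 1825 in the same 4 libraries without it, and 3486 and 2155 in PDGFR-β+ cells, against 3461 and 2098. Against the main fit, the SMC calls of Aldoc and Eno2 and the interaction calls of Hk1, P4ha2 and Ankrd37 were absent with this block. All of these, the interactions of Hk1, P4ha2 and Ankrd37 included, also missed the threshold in the numbered SMC libraries without the block. PDGFR-β+ calls of Aldoa (0.0378), P4ha2 (0.043) and Ndrg1 (0.0234) were added. A block that also takes the unnumbered libraries as a pair, chosen after seeing the data, gave 2642 and 2230 genes in SMCs, with 12 glycolytic genes higher and 2 lower. It added the SMC call of Adm (0.0455) and the interaction call of Gapdh (0.0326), and ended that of Hk1 (0.0865), with no other change of call among the members.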
